A study of Mus musculus with 20 samples.

Results

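Left ventricular heart tissue from male mice fed a high-fat, low-protein diet (HF + LP) was compared to tissue from mice fed the normal protein diet (NP), by sequencing the 3′ ends of polyadenylated RNA. The comparison took the 5 HF + LP libraries and the 5 NP libraries by their diet names, which are 10 of the 20 libraries of the study, each labelled as a mouse of its own. NP mice received a diet with 20% casein as the protein source, and HF + LP mice received 5% casein with a high content of fat, largely lard. The remaining libraries came from 5 mice on the low protein diet (LP, 5% casein) and 5 mice on the high-fat diet with 20% casein (HF), and they enter below where a gene of the comparison is followed across the diets. All mice were described as male and obtained from the Jackson Laboratory, were not described as carrying any transgene, and were fed the diets for 4 months. The methods place tissue collection at 16 months of age, in the fed state and in the middle of the light phase, whereas the sample labels give 18 months for every mouse. The strain is not given in the sources used here. The comparison asks what differs in the heart when a high fat content is combined with protein restriction, at a body weight close to that of the control mice.

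Body weight was 48.6 ± 5.93 g in HF + LP and 43.0 ± 7.82 g in NP (mean ± SD, n = 5 each). HF + LP mice weighed from 41.2 to 56.1 g and NP mice from 33.3 to 52.3 g, so the ranges overlapped. The difference of 5.54 g did not pass a two-sided exact permutation test (p = 0.230). HF mice weighed 58.9 ± 1.765 g and LP mice 32.6 ± 2.69 g (SD, n = 5 each).

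Total counts lay between 14250780 and 20469775 in NP and between 14937961 and 18762093 in HF + LP. Counts on mitochondrially encoded genes made up 43.2 ± 2.48% in NP and 43.3 ± 3.37% in HF + LP (SD, n = 5), and this share, the total, and the share of the 10 most counted genes did not pass exact permutation tests (adjusted p from 0.683 to 0.921 over 4 measures with body weight). The cardiomyocyte markers (Myh6, Tnnt2, Tnni3, Actc1, Ryr2, Myl2, and Nppa) were counted in all 10 libraries, and their summed normalized count was 627000 to 708900 in NP and 518100 to 686000 in HF + LP. Markers of atrial muscle were uneven within groups, with sums from 3924 to 63100 in NP and from 2205 to 89780 in HF + LP, and their part in the results below was not tested. Among all libraries, LP mouse 13 correlated least with its own group (median r = 0.907, against 0.942 or more for the others), and it enters the spread of the model but not the HF + LP and NP means.

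The heart draws most of its energy from fatty acids, which are taken up from the blood, bound by carrier proteins, moved into mitochondria as carnitine esters, and oxidized there. Fatty acids also activate peroxisome proliferator-activated receptors (PPARs), nuclear receptors that raise the transcription of genes for these steps. Amino acid shortage is sensed by kinases such as GCN2, which act through the transcription factor ATF4, while leucine and its relatives are broken down by a mitochondrial pathway that begins with a transaminase and a dehydrogenase.

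In HF + LP compared to NP, 4 of 13991 genes were called, which is a share of 0.0286%, and all 4 fell. Called means that edgeR's quasi-likelihood test gave a p under 0.01 after Benjamini-Hochberg adjustment and that the base mean was over 50, the base mean being the mean normalized count over the 20 libraries. At an adjusted p under 0.05 with the same base mean, 16 genes passed (0.114%), of which 4 were higher and 12 lower. Without adjustment, 8.77% of genes had a p under 0.05, made up of 545 that were higher (3.9%) and 682 that were lower (4.87%). A log2 fold change above 0 was found in 50.2% of genes, and in 2.57% the 5 HF + LP mice did not overlap with the 5 NP mice. The median log2 fold change over all genes was 0.000875, so that the scale was centred. The number of calls depended on the model, since DESeq2 with all 4 groups called 31 genes, 12 of them higher. Heart tissue is a mixture of cells, and in these bulk libraries fewer cells of a type cannot be told apart from less of a transcript in each cell.

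The 4 called genes were the long non-coding RNA 5430431A17Rik, the unclassified transcript Gm42972, the histone methyltransferase gene Kmt2d, and Abat, which encodes the mitochondrial transaminase that degrades the neurotransmitter GABA. 5430431A17Rik (ENSMUSG00000108322, chromosome 7 of GRCm38 from 44473538 to 44486138, plus strand) had normalized counts of 289, 319, 314, 289, and 302 in the NP mice. It had 56.2, 64.1, 83.7, 71.7, and 86.6 in the HF + LP mice. Every HF + LP mouse lay far below the lowest NP mouse, and the log2 fold change was −2.06 (SE 0.18, adjusted p = 3.19e-06 from edgeR). Gm42972 (ENSMUSG00000105445, chromosome 3 from 127266673 to 127272289, minus strand) had normalized counts between 172 and 184 in NP, a narrow range, and 68.8, 73.7, 82.7, 84.0, and 101 in the HF + LP mice. Its log2 fold change was −1.11 (SE 0.12, adjusted p = 9.79e-05 from edgeR), again without overlap between the groups.

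Kmt2d (chromosome 15 from 98831669 to 98871204, minus strand), which places methyl groups on lysine 4 of histone H3 at enhancers, had normalized counts of 543, 482.5, 420, 433, and 516 in the NP mice and 271, 277, 318, 290, and 276 in the HF + LP mice. The groups did not overlap, and the log2 fold change was −0.74 (SE 0.11, adjusted p = 0.00374 from edgeR). Abat (chromosome 16 from 8513429 to 8621568, plus strand) had normalized counts of 149, 184, 170, 156, and 124 in the NP mice and 65.6, 59.8, 72.3, 25.8, and 24.8 in the HF + LP mice. The highest HF + LP mouse was well below the lowest NP mouse, with a log2 fold change of −1.65 (SE 0.24, adjusted p = 0.00508 from edgeR). The calls of Kmt2d and Abat were each lost when certain mice were left out, with adjusted p from 0.0124 to 0.0158 for Kmt2d and from 0.0136 to 0.0187 for Abat in those fits, whereas 5430431A17Rik and Gm42972 passed whichever mouse was left out. Both calls were also lost with body weight as a covariate (edgeR adjusted p = 0.0142 for Kmt2d and 0.0175 for Abat), in a fit of the HF + LP and NP libraries alone (0.0287 and 0.0479), and with animal number as a block (0.144 and 0.0491), in which Gm42972 was lost as well (0.0340).

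**Figure D1:**
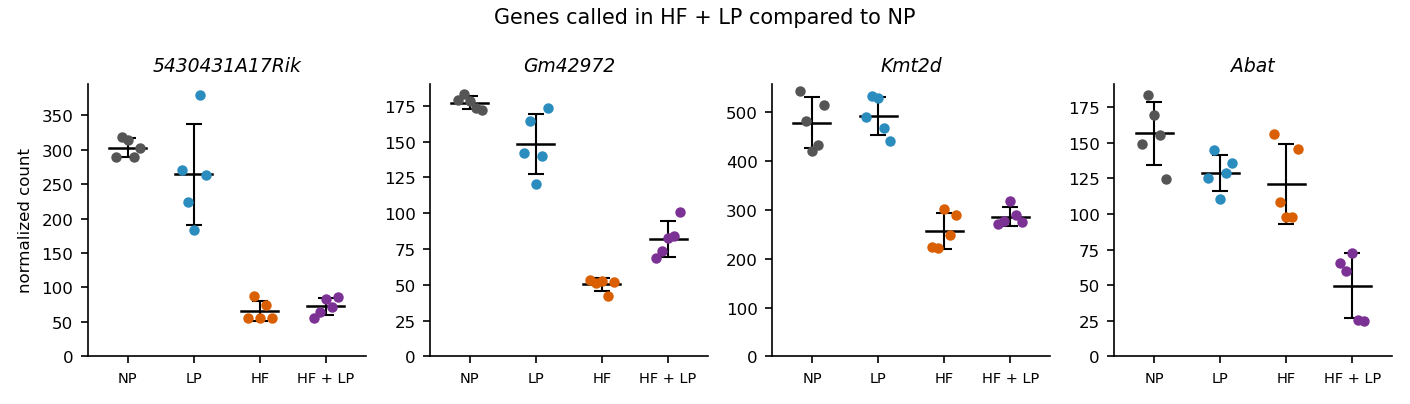
Normalized count (vertical axis, linear, from 0) of the 4 genes called in HF + LP compared to NP, by diet group. Points are mice, bars are the mean and SD (n = 5). All HF + LP points lie below all NP points in each panel, and the HF points lie near the HF + LP points for 5430431A17Rik and Kmt2d while for Abat they lie above all HF + LP points, with 3 of 5 below all NP points.

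The plot of the called genes by diet group places these values beside those of the HF and LP mice, and edgeR called none of the 4 genes between HF + LP and HF or for the interaction. In HF mice, 5430431A17Rik averaged 65.7 ± 14.2 and Kmt2d 257 ± 36.8 (normalized count, SD, n = 5), close to their HF + LP means of 72.5 ± 12.8 and 286 ± 18.9. Between HF + LP and HF the log2 differences were 0.15 (SE 0.18) for 5430431A17Rik and 0.15 (SE 0.11) for Kmt2d, which did not pass the test. Gm42972 was lower still in HF, at 50.3 ± 4.57 against 82.0 ± 12.4 in HF + LP, a log2 difference of 0.71 (SE 0.12) with an unadjusted p of 1.80e-05 and an adjusted p of 0.0841 from edgeR. Abat averaged 121 ± 27.9 in HF and 129 ± 12.7 in LP against 49.6 ± 22.7 in HF + LP. HF + LP and HF mice did not overlap for Abat, with 97.7 as the lowest HF value and 72.3 as the highest HF + LP value, and the log2 difference was −1.28 (SE 0.24) with an unadjusted p of 3.96e-05 and an adjusted p of 0.134 from edgeR. The interaction of fat and protein content was −0.9997 on the log2 scale for Abat (SE 0.34) with an unadjusted p of 0.00739 and an adjusted p of 0.628 from edgeR. In LP compared to NP, the 4 genes had log2 fold changes of −0.20 (5430431A17Rik), −0.26 (Gm42972), 0.04 (Kmt2d), and −0.28 (Abat), and 0 were called by edgeR, with an unadjusted p of 0.0406 for Gm42972, for which 4 of 5 LP mice lay below all NP mice.

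Of the 10 lower genes with the smallest p, 4 were non-coding transcripts of little known function. Libraries of this kind are primed with oligo(dT), so the longest run of A in each transcript of GENCODE M21 (GRCm38) is shown in capitals with 60 bases on either side, on the strand of the gene. Whether reads began at these runs was not tested. All 4 windows lie within an exon.

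5430431A17Rik, chr7:44485632-44485779, plus strand: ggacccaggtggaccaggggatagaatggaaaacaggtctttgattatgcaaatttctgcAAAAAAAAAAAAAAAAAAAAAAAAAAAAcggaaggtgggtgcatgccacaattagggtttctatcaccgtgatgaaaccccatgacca
Gm42432, chr9:110041805-110041947, plus strand: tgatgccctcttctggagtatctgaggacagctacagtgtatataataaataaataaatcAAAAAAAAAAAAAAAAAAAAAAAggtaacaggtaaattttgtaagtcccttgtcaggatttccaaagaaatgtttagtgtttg
Gm42992, chr5:131988956-131989087, minus strand: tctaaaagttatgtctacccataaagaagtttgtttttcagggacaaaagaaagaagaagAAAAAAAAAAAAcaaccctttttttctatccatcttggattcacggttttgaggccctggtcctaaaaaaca
Gm42972, chr3:127267649-127267775, minus strand: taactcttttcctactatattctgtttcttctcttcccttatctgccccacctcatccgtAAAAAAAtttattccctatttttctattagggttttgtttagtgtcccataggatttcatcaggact

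The runs are 28, 23, 12, and 7 bases long in this order. A run of 10 or more A was present in 326 of 1130 non-coding genes tested (28.8%), and in 27 of the 72 that were lower at an unadjusted p under 0.05 (37.5%). The median longest run was 7 bases in both sets.

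Gm42992 had normalized counts of 93.1 to 122 in NP and 37.0 to 76.3 in HF + LP, a log2 fold change of −1.07 (SE 0.18, adjusted p = 0.0130 from edgeR). Gm42432 had 133.5 to 197 in NP and 47.9 to 89.7 in HF + LP, a log2 fold change of −1.27 (SE 0.22, adjusted p = 0.0138). The groups did not overlap for either transcript, though neither passed the threshold of 0.01. Each of the 3 unclassified transcripts lies inside a longer protein-coding gene on the same strand, so reads of the longer gene's unspliced RNA cannot be told apart from reads of the transcript. Gm42972 lies in Ank2, which encodes the membrane adaptor ankyrin-B, and Ank2 itself had a log2 fold change of −0.40 (SE 0.15, adjusted p = 0.4004). Gm42992 lies in Auts2, with −0.18 (SE 0.22), and Gm42432 in Map4, which encodes a microtubule-associated protein, with −0.0028 (SE 0.18).

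Inside the span of Ank2, 9 transcripts were tested, a set looked up after the values of Gm42972 had been seen. Their log2 fold changes in HF + LP compared to NP lay between −1.42 and −0.27, and 4 of the 9 had an unadjusted p under 0.05. Gm42971 had −1.06 (SE 0.22, adjusted p = 0.0768) and Gm42970 −0.84 (SE 0.17, adjusted p = 0.0577), and for both the HF + LP mice lay below all NP mice. In HF compared to NP the 9 transcripts had log2 fold changes between −1.93, again in Gm42973, and −0.48. Gene types were compared in the same way. Of 418 transcripts of the GENCODE type TEC, whose existence awaits experimental proof, 31 were lower and 2 higher at an unadjusted p under 0.05 (7.42% and 0.478%), with a median log2 fold change of −0.21. Of 64 sense intronic transcripts, 7 were lower and 0 higher, with a median of −0.25. Among 12533 protein-coding genes, 595 were lower (4.75%) and 486 higher (3.88%), with a median of 0.0043. In HF compared to NP the medians of these types were −0.61, −0.63, and 0.0103.

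5430431A17Rik has a neighbour among the lower genes. Lrrc4b, which encodes a synaptic adhesion protein and ends 10187 bases before 5430431A17Rik on the same strand, had normalized counts of 84.7 to 109 in NP and 20.2 to 48.5 in HF + LP. The groups did not overlap, and the log2 fold change was −1.45 (SE 0.23, adjusted p = 0.0112 from edgeR). Josd2, a deubiquitinase gene that lies between them, had a log2 fold change of 0.03 (SE 0.12). Neat1, the long non-coding RNA that builds nuclear paraspeckles, is far more abundant, with 9994 to 14000 normalized counts in NP and 4837 to 7975 in HF + LP. Its log2 fold change was −0.80 (SE 0.15, adjusted p = 0.0364) without overlap between the groups. The list of nuclear and long non-coding RNAs holds transcripts picked from these libraries and so is no independent evidence of a direction. It had 2 called members of 15 tested, against 0.0286% of all genes. At an unadjusted p under 0.05, 1 was higher and 5 lower, against 3.9% and 4.87% of all genes. The median log2 fold change of this list was −0.22.

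Among chromatin regulators, 1 of 26 genes tested was called (Kmt2d), against 0.0286% of all genes. At an unadjusted p under 0.05, 6 were lower and 0 higher, against 4.87% and 3.9% of all genes. The median log2 fold change of the list was −0.18, against 0.000875 over all genes. The other chromatin genes did not pass the adjusted threshold. In HF compared to NP the median of the list was −0.34, and in LP compared to NP it was 0.03. Zfhx2, a zinc finger homeobox gene outside this list, had 187 to 217 normalized counts in NP and 115 to 162 in HF + LP, a log2 fold change of −0.54 (SE 0.10, adjusted p = 0.0338 from edgeR).

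Of the 10 higher genes with the smallest p, 0 passed the threshold of 0.01 in edgeR, whereas all 10 passed it in DESeq2 with all 4 groups. Of the 20 PPAR-responsive genes tested, 8 were higher and 0 lower at an unadjusted p under 0.05, against 3.9% and 4.87% of all genes, and 0 were called. Their median log2 fold change was 0.32, against 0.17 in HF compared to NP and −0.12 in LP compared to NP. Of the 20, 17 were above 0, against 50.2% of all genes, and 3 had no overlap between the groups, against 2.57%. Slc25a20, the carrier that brings acylcarnitines into mitochondria, had normalized counts of 1968 to 2328 in NP and 2592 to 2943 in HF + LP, without overlap, and a log2 fold change of 0.34 (SE 0.11, adjusted p = 0.273). Angptl4, a secreted inhibitor of lipoprotein lipase, had 17.1 to 241 in NP and 88.5 to 456 in HF + LP, so that the groups overlapped, and its log2 fold change was 1.85 (SE 0.59, adjusted p = 0.282). Cd36, a fatty acid transporter of the cell membrane, had 7913 to 8838 in NP and 10170 to 10720 in HF + LP. Its log2 fold change was only 0.31 (SE 0.11, adjusted p = 0.346), but no mice overlapped. HF mice had 8931 to 10320 counts of Cd36, and LP mice 5654 to 9054.

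**Figure D2:**
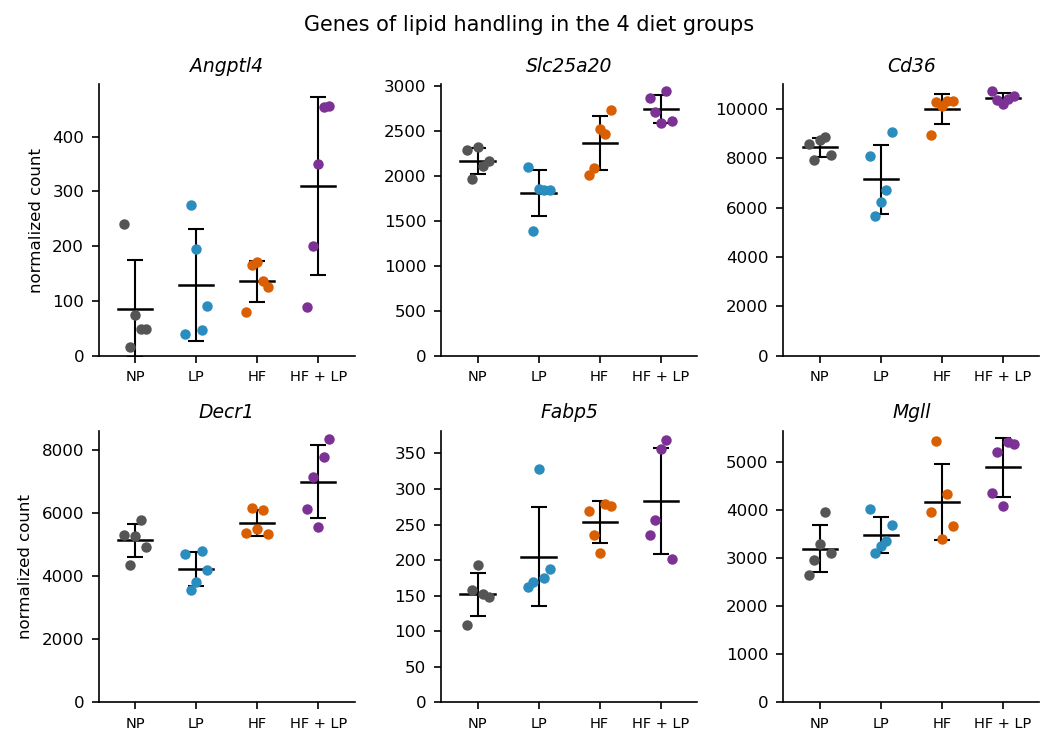
Normalized count (vertical axis, linear, from 0) of 6 genes of lipid handling, by diet group. Points are mice, bars are the mean and SD (n = 5), cut off at 0. HF + LP means were the highest of the 4 diets in every panel, from 284 for Fabp5 to 10432 for Cd36, and edgeR called 0 of the 6 genes, whereas DESeq2 with all 4 groups called Fabp5 and Mgll.

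The genes of mitochondrial fatty acid oxidation differed less. Of 17 tested, 1 was higher and 0 lower at an unadjusted p under 0.05, and the median log2 fold change was 0.13, with 15 of 17 above 0. That gene was Decr1, an accessory enzyme for polyunsaturated fatty acids, with 4356 to 5777 normalized counts in NP and 5564 to 8347 in HF + LP, and a log2 fold change of 0.45 (SE 0.12, adjusted p = 0.211). The median of this list was 0.000717 in HF compared to NP and −0.22 in LP compared to NP. Fabp5, a cytosolic fatty acid carrier of endothelium and macrophages, had 109 to 193 in NP and 202 to 368.5 in HF + LP, a log2 fold change of 0.90 (SE 0.20, adjusted p = 0.108) without overlap. Mgll, which releases the last fatty acid from stored fat, had 2654 to 3955 in NP and 4090 to 5405 in HF + LP, with 0.61 (SE 0.13, adjusted p = 0.0903). Hsd17b11, an enzyme found on lipid droplets, had 520 to 882 in NP and 822 to 1174 in HF + LP, with 0.62 (SE 0.13, adjusted p = 0.0725), and was the only one of the 20 genes named by p whose groups overlapped. In Rbp7, a retinol-binding protein of endothelial cells, the counts were 191 to 323 in NP and 345 to 574 in HF + LP, with 0.95 (SE 0.17, adjusted p = 0.0170).

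Mthfd2, a mitochondrial enzyme of folate metabolism, was among the higher genes as well. Its normalized counts were 54.9, 40.6, 35.2, 45.6, and 46.4 in the NP mice and 58.3, 96.2, 117, 124, and 92.8 in the HF + LP mice. HF + LP mouse 1 was only slightly above the highest NP mouse, and the others were well above it. The log2 fold change was 1.13 (SE 0.20, adjusted p = 0.0170 from edgeR). In HF compared to NP it was 1.49 (SE 0.20), and HF mice had 106 to 141 counts. Its companion Mthfd1l had a log2 fold change of −1.51 (SE 0.52, adjusted p = 0.358), and the list of serine and one-carbon metabolism had a median of 0.0086 with 1 higher and 1 lower of 14 at an unadjusted p under 0.05. Gcat, the mitochondrial enzyme that makes glycine from the breakdown product of threonine, had 134 to 182 in NP and 75.1 to 123 in HF + LP, a log2 fold change of −0.84 (SE 0.14, adjusted p = 0.0130).

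Sord, the sorbitol dehydrogenase gene, had normalized counts of 1509 to 1700 in NP and 1906 to 2344 in HF + LP, and a log2 fold change of 0.44 (SE 0.10, adjusted p = 0.108). Its HF mean was 1728 ± 154 and its LP mean 1646 ± 234 (SD, n = 5), near the NP mean of 1614 ± 76.0. The log2 difference between HF + LP and HF was 0.34 (adjusted p = 0.411 from edgeR). Grk5, a kinase of G protein-coupled receptors, had 172 to 228 in NP and 249.5 to 437 in HF + LP, with 0.84 (SE 0.18, adjusted p = 0.0903).

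The remaining higher genes belong to the mitochondrial genome or resemble it. The isoleucine transfer RNA gene mt-Ti had normalized counts of 239 to 1574 in NP and 2720 to 5565 in HF + LP, a log2 fold change of 2.19 (SE 0.40, adjusted p = 0.0224), and shares bases with the end of mt-Nd1, whose log2 fold change was 0.13 (SE 0.12). Of 12 mitochondrial transfer RNA genes tested, 6 were higher and 2 lower at an unadjusted p under 0.05. Among them, mt-Tt had a log2 fold change of 3.66 (SE 1.00), mt-Tw 2.98 (SE 0.70), and mt-Tc −2.15 (SE 0.51), all named after their values were seen. In HF compared to NP these were 2.59, 2.19, and −1.97. The 8 mitochondrially encoded protein genes tested had a median of 0.09, and mt-Nd6, the one at an unadjusted p under 0.05, had 1.02 (SE 0.31, adjusted p = 0.264). Gm13340, a pseudogene on chromosome 2, had 114 to 232 in NP and 268 to 448 in HF + LP, with 1.112 (SE 0.23, adjusted p = 0.0768). Of its stretches of 25 bases, 53.7% occur in mt-Co1, so its reads are uncertain, and mt-Co1 had a log2 fold change of 0.27 (SE 0.17).

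**Figure D3:**
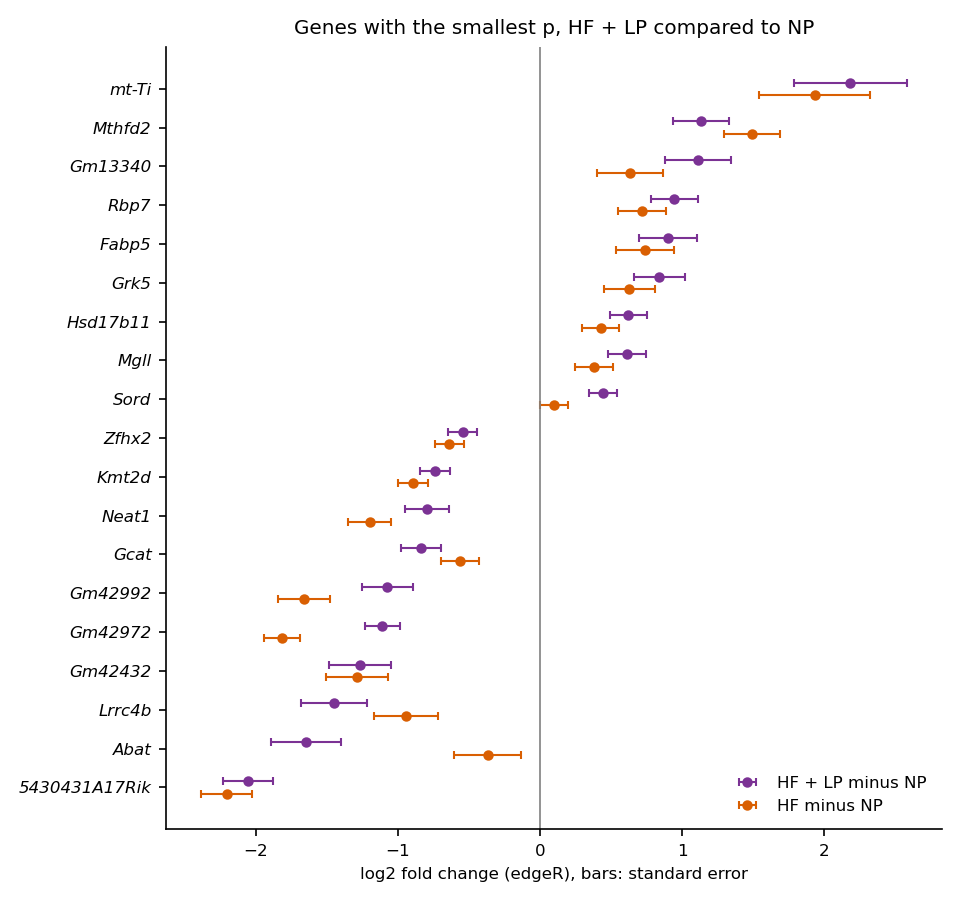
Log2 fold change against NP (horizontal axis) of 19 of 20 genes in HF + LP compared to NP, with HF compared to NP beside it. The 20 are the 10 higher and the 10 lower genes with the smallest p among those with a base mean over 50. Points are edgeR estimates and bars their SE, and both estimates share the 5 NP mice. Abat, Sord, Lrrc4b, and Gcat, among others, have HF values nearer to 0 than their HF + LP values. Gm42972, Gm42992, Neat1, and Mthfd2, among others, have HF values farther from 0.

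The 20 genes were followed into the other comparisons, which share mice with HF + LP compared to NP. In HF compared to NP, the 10 higher genes had log2 fold changes between 0.10 and 1.93, and the 10 lower genes between −2.21 and −0.37. In LP compared to NP, they lay between −0.26 and 0.53 and between −0.36 and 0.09, and 0 of the 20 were called (4 at an unadjusted p under 0.05). Between HF + LP and HF, edgeR called 0 of the 20, and 8 had an unadjusted p under 0.05. Those values lay between −0.36 and 0.48 for the 9 higher genes described above and between −1.28 and 0.71 for the lower genes. Between HF + LP and LP, 10 of the 20 were called. The share over all genes was 0.1%, but the 20 were chosen on the same HF + LP mice, so nothing is read from this count. The differences lay between 0.41 and 1.65 for the same 9 higher genes and between −1.86 and −0.50 for the lower genes. The count of 10 fell to 3 without LP mouse 13 and to 0 with body weight in the model. The interaction of fat and protein content was called for 0 of the 20 in edgeR, with 7 at an unadjusted p under 0.05. The smallest p there belonged to Gm42972, with an interaction of 0.97 on the log2 scale (unadjusted p = 1.84e-05, adjusted p = 0.258). Gm42992 had 0.95 (unadjusted p = 0.00132, adjusted p = 0.614).

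Genes of branched-chain amino acid breakdown had mostly negative values. Of 19 tested, 0 were higher and 6 lower at an unadjusted p under 0.05, 18 were below 0, and the median log2 fold change was −0.22, while 0 were called. Bcat2, the mitochondrial transaminase of the first step, had normalized counts of 328, 264, 241, 282, and 371 in the NP mice and 209, 231, 148, 159, and 196 in the HF + LP mice. Every HF + LP mouse was below every NP mouse, and the log2 fold change was −0.66 (SE 0.17, adjusted p = 0.211 from edgeR). Ivd, the dehydrogenase of leucine breakdown, had 1895 to 2533 in NP and 1261 to 1858 in HF + LP, with −0.47 (SE 0.14, adjusted p = 0.252). Pccb, a subunit of propionyl-CoA carboxylase, had 1296 to 1612 in NP and 981 to 1270 in HF + LP, with −0.38 (SE 0.13, adjusted p = 0.353). Neither pair of groups overlapped. Over the list, 3 of 19 had no overlap, against 2.57% of all genes, and the genes named here have its smallest p. The median of this list was also −0.22 in HF compared to NP, and −0.12 in LP compared to NP.

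**Figure D4:**
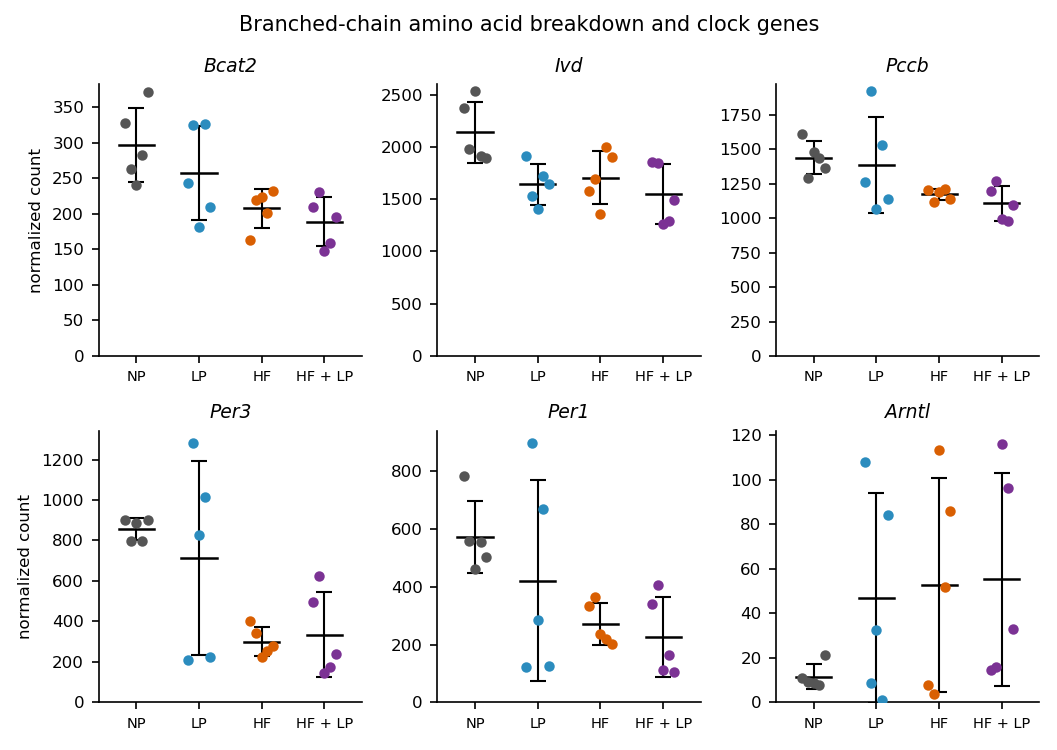
Normalized count (vertical axis, linear, from 0) of 3 genes of branched-chain amino acid breakdown and 3 clock genes, by diet group. Points are mice, bars are the mean and SD (n = 5), cut off at 0. The HF + LP mice lie below the NP mice in the first 5 panels, and for Arntl the HF + LP mice spread from 14.6 to 116.

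Genes of amino acid sensing and supply showed little difference. The list of ATF4 targets and the integrated stress response had 0 higher and 1 lower of 18 at an unadjusted p under 0.05 and a median of 0.10, against 0.24 in HF compared to NP. Amino acid transporters had none of 19 in either direction and a median of −0.04. Among mTORC1 and GCN2 genes 0 of 24 were higher and 2 lower at that p. Rptor, the mTORC1 scaffold, had 209 to 218.5 normalized counts in NP and 136 to 190 in HF + LP, with −0.38 (SE 0.11, adjusted p = 0.227). Of 21 genes of insulin and IGF signaling with glucose transporters, 1 was higher and 2 lower at that p, with a median of −0.02. Akt2, a kinase of insulin signaling, had 829 to 1229 in NP and 920 to 1842 in HF + LP, with 0.41 (SE 0.16, adjusted p = 0.426) and overlap between the groups. Slc2a4, the insulin-regulated glucose transporter, had 3873 to 4394 in NP and 2451 to 3619 in HF + LP, with −0.39 (SE 0.12, adjusted p = 0.252). Of 33 genes of glycolysis, pyruvate dehydrogenase, and the citrate cycle, 0 were higher and 3 lower, with a median of −0.07. Ogdh, a subunit of the 2-oxoglutarate dehydrogenase of the citrate cycle, had 14840 to 17720 in NP and 10930 to 14620 in HF + LP, with −0.31 (SE 0.10, adjusted p = 0.337).

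The clock gene Arntl spread widely among the mice of the HF + LP, HF, and LP groups. Per3, a repressor of the core clock loop, had normalized counts of 901, 797, 887, 798, and 901 in the NP mice and 495, 623, 146, 175, and 237 in the HF + LP mice. The groups did not overlap, and the log2 fold change was −1.36 (SE 0.44, adjusted p = 0.296 from edgeR). Per1 had 462 to 783 in NP and 104 to 405 in HF + LP, with −1.34 (SE 0.47, adjusted p = 0.366). Arntl, the activator of the loop, had 7.74 to 21.5 in NP and 14.6 to 116 in HF + LP, with 2.25 (SE 0.91, adjusted p = 0.445). Of 12 core clock genes 1 was higher and 2 lower at an unadjusted p under 0.05. Of 10 clock output factors 1 was higher and 4 lower at that p. Their median was −0.62, against −0.56 in HF and −0.39 in LP compared to NP. The summed normalized count of the clock output factors was 13290 to 15260 in NP. It was 14630 and 12920 in HF + LP mice 1 and 2, but 5156, 5646, and 6318 in mice 3, 4, and 5. The median of this list therefore does not describe all 5 HF + LP mice alike. The sum was 7214 to 11450 in HF and 5468 to 17010 in LP. HF mice had 224 to 400.5 for Per3 and 3.95 to 113.5 for Arntl, and LP mice 210 to 1283 and 1.26 to 108. The time of day is given only as the middle of the light phase for all mice, so its part in these values was not tested.

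Interferon-stimulated genes, which respond to viral nucleic acids and to interferons, had a median near 0 against NP. Of 44 interferon-response genes tested, 0 were higher and 0 lower at an unadjusted p under 0.05, and 0 were called by edgeR. The median log2 fold change was −0.11, with a range of −0.24 to 0.09 over the alternatives. NP mice were uneven, with summed counts of 9477 to 19260, against 11110 to 13640 in HF + LP and 12780 to 34080 in HF. The highest NP sum was that of mouse 5. The same list had a median of 0.98 in HF compared to NP and of −1.16 in HF + LP compared to HF. In HF + LP compared to HF edgeR called 0 genes of all tested. There, 677 had an unadjusted p under 0.05, with 2.41% of all genes higher and 2.43% lower. Zbp1, a nucleic acid sensor, had 17.9 to 55.1 normalized counts in NP, 13.4 to 29.1 in HF + LP, and 20.3 to 135.5 in HF. MHC class I and immunoproteasome genes had none of 18 at that p and a median of −0.15, against 0.51 in HF compared to NP. Cytosolic DNA sensing genes had none of 14 and a median of 0.01, against 0.49.

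Markers of macrophages derived from monocytes, which enter the heart from the blood, had mostly positive values. Of 19 tested, 5 were higher and 0 lower at an unadjusted p under 0.05, 0 were called, and the median log2 fold change was 0.37, against 0.80 in HF compared to NP and 0.11 in LP compared to NP. Their summed normalized count was 3711 to 4197 in NP, 3978 to 5968 in HF + LP, and 5485 to 6688 in HF. Ccr2, the chemokine receptor of recruited monocytes, had 52.5 to 101 in NP and 105 to 153 in HF + LP, with 0.67 (SE 0.19, adjusted p = 0.236). The chemokine Ccl6 had 234 to 316 in NP, 346 to 417 in HF + LP, and 448 to 737 in HF, with 0.43 (SE 0.14, adjusted p = 0.303) against NP and −0.58 against HF (unadjusted p = 0.000397, adjusted p = 0.217). Ctss, the lysosomal protease cathepsin S, had 270 to 302 in NP, 329 to 504 in HF + LP, and 390 to 632.5 in HF, with 0.47 (SE 0.16, adjusted p = 0.359). Of these 3 genes, named for the smallest p in the list, none had HF + LP and NP mice that overlapped. Over the list, 4 of 19 had no overlap, against 2.57% of all genes. Resident macrophage genes had 1 higher and 0 lower of 18 and a median of 0.06, and that gene, Cx3cr1, had 0.83 (SE 0.23, adjusted p = 0.236).

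**Figure D5:**
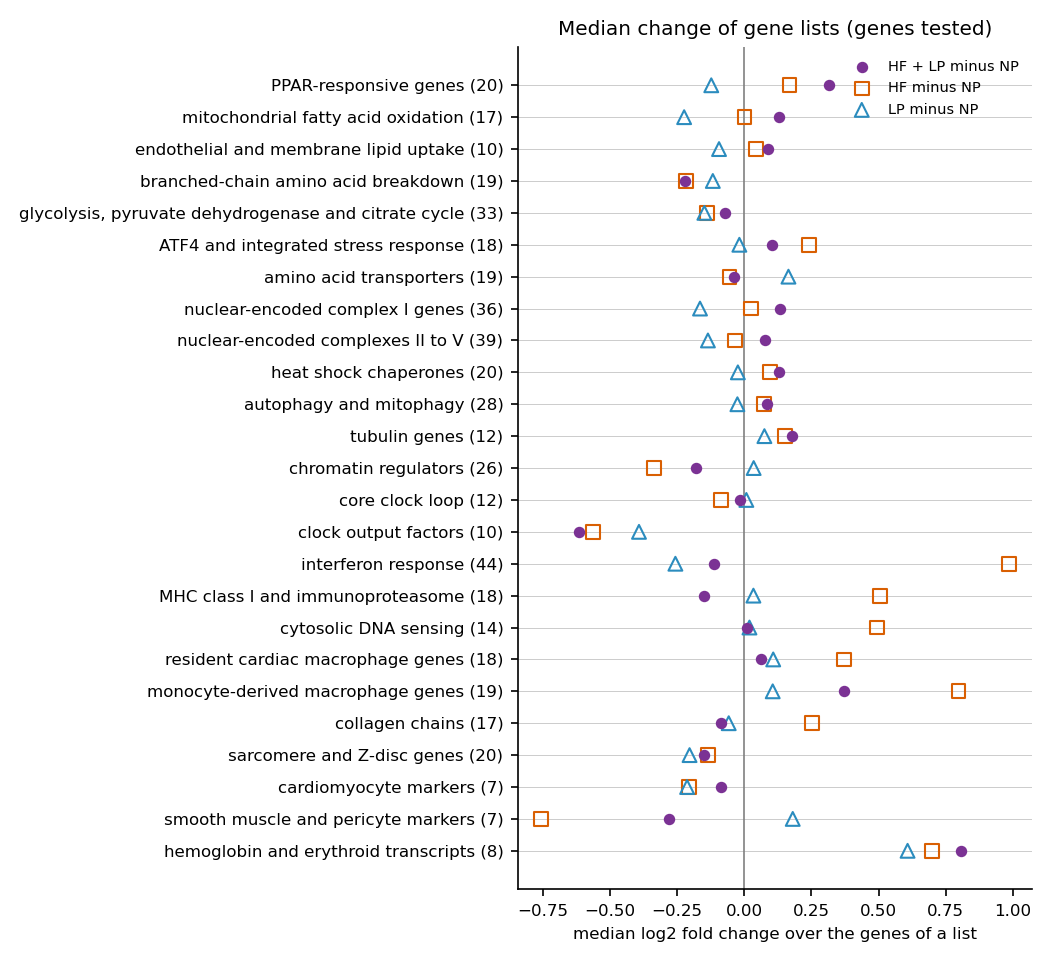
Median log2 fold change against NP (horizontal axis) over the genes of 25 lists in HF + LP, HF, and LP, with the number of genes tested in brackets. The 3 medians of a row share the NP mice and carry no test. The interferon list lies at −0.11 in HF + LP and 0.98 in HF, and branched-chain amino acid breakdown at −0.22 in both.

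Protein folding and autophagy genes differed by small amounts. Of 20 heat shock chaperones, 6 were higher and 0 lower at an unadjusted p under 0.05, with a median of 0.13, and Hsph1, a co-chaperone, had 266 to 365 normalized counts in NP and 349 to 482 in HF + LP, with 0.56 (SE 0.17, adjusted p = 0.264). Of 28 autophagy and mitophagy genes, 5 were higher and 1 lower, with a median of 0.09. Bnip3, a mitophagy receptor of the outer mitochondrial membrane, had 1792 to 2221 in NP and 2104 to 2902 in HF + LP, with 0.45 (SE 0.10, adjusted p = 0.117). Of 12 tubulin genes 4 were higher and 0 lower, with a median of 0.18, and Tubb2a had 311 to 349.5 in NP and 361.5 to 597 in HF + LP, with 0.52 (SE 0.15, adjusted p = 0.246). Cdkn1a, the cell cycle inhibitor p21, had 192 to 354 in NP and 346 to 724 in HF + LP, with 0.94 (SE 0.29, adjusted p = 0.264).

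Respiratory chain genes encoded in the nucleus had small positive medians and few members at an unadjusted p under 0.05. Of 36 complex I genes 1 was higher and 0 lower, with a median of 0.13 and 31 above 0. Of 39 genes of complexes II to V 1 was higher and 1 lower, with a median of 0.08. In LP compared to NP the medians were −0.16 and −0.14. Mitochondrial dynamics and biogenesis genes had none of 15 at that p and a median of 0.0057.

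Genes of the contractile apparatus had mostly negative values. Myh6, the main myosin heavy chain of the adult mouse ventricle, had 86690 to 110600 normalized counts in NP and 49070 to 86170 in HF + LP, with −0.48 (SE 0.13, adjusted p = 0.228) and no overlap. Cacna1g, a T-type calcium channel gene that the study chose on this experiment's RNA sequencing for its heat map of HF and NP, had 97.3 to 124 in NP and 34.2 to 72.2 in HF + LP, with −1.001 (SE 0.23, adjusted p = 0.108). Of 20 sarcomere and Z-disc genes 0 were higher and 3 lower at an unadjusted p under 0.05, with a median of −0.15. Smooth muscle and pericyte markers had 0 higher and 3 lower of 7 and a median of −0.28, against −0.76 in HF compared to NP. Myh11, the smooth muscle myosin, had 204 to 494 in NP and 108 to 172.5 in HF + LP, with −1.28 (SE 0.32, adjusted p = 0.166). The summed count of these markers overlapped, with 8229 to 9162 in NP and 7982 to 10420 in HF + LP, and its part in the difference of Myh11 was not tested.

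Other cell types were uneven among the mice. Hemoglobin and erythroid transcripts had 4 higher and 0 lower of 8 at an unadjusted p under 0.05 and a median of 0.81. This median ranged from 0.34 without HF + LP mouse 3 to 1.14 without NP mouse 3. The summed count of these transcripts overlapped between the groups. Their summed count was 60850 to 178300 in NP and 82150 to 313900 in HF + LP. Lipogenic and adipocyte genes had 1 higher and 2 lower of 16 and a median of −0.96, which ranged from −1.89 without HF + LP mouse 3 to −0.14 with animal number as a block and was −0.50 without NP mouse 6, with sums of 1142 to 3287 in NP and 1030 to 1857 in HF + LP. The adipocyte hormone gene Lep was at 0 in 4 of 5 HF + LP mice and in 1 of 5 NP mice. Fibroblast and endothelial markers had medians of −0.10 and 0.12, with 0 and 1 of 7 at that p, and collagen chains a median of −0.09. What these cell types contributed to the genes above was not tested.

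The study's own heat map genes were chosen on the RNA sequencing of this experiment, so their counts are no independent evidence. Of the 20 genes of HF against NP, 11 were higher and 5 lower in HF + LP compared to NP at an unadjusted p under 0.05, and 0 were called, and their median log2 fold change was 0.38 against 0.62 in HF. Of the 20 genes of HF + LP against HF, 1 was higher and 1 lower, with a median of −0.21 against 0.96 in HF compared to NP. Of all 60 lists, 2 held a called gene, and 12 had no member at an unadjusted p under 0.05.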

How the data were processed

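Tissue from 20 hearts was sequenced with 3′ mRNA libraries (QuantSeq), and the authors deposited raw counts per gene with the build GRCm38 and DESeq2 1.22.2 in the submitters' notes. The table lists 15956 genes, of which 15917 matched a GENCODE M21 symbol, and each listed gene has at least 60 counts over the 20 libraries, so that low genes were absent before the tests. From these counts, all 4 groups were fitted together in edgeR 4.0.16 (R 4.3.3) with genes kept by filterByExpr, TMM scaling, and the quasi-likelihood test with Benjamini-Hochberg adjustment over 13991 genes. Adjusted and unadjusted p of genes come from this fit. Normalized counts are counts divided by size factors. Library measures were compared with two-sided exact permutation tests. Gene names were chosen as the 10 smallest p in each direction, called list members, and otherwise up to 3 list members with the smallest p. The members and lists were chosen with earlier results of these data known. Groups and replicate numbers came from the labels, and p-values measure the spread between the mice. Alternatives were DESeq2 1.42.0, other scaling and filters, covariates, and leaving out each mouse. The code was tested on simulated data. Some genes that the rule would name are not reported here.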

Additional observations from a re-analysis of the deposited data

Results flagged for a closer look

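For 48 sets of 5 mice, the highest and lowest values were tested for distance from the others by Dixon's ratio, in which chance marks about 1 in 20 sets, and 2 were marked. Neat1 had a normalized count of 14000 in NP mouse 4, with the nearest NP mouse at 10970, a gap of 0.756 of the range. Gcat had 122.7 in HF + LP mouse 5, with the nearest HF + LP mouse at 84.4, a gap of 0.805 of the range.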

How the results depend on the processing

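The count of 4 called genes was 31 with DESeq2, 60 with DESeq2 on the HF + LP and NP libraries alone, 7 with at least 10 counts required in every library, 16 at an adjusted p under 0.05, 2 with edgeR on those 10 libraries alone or with body weight as a covariate, and 1 with animal number as a replicate block. It was 7 without LP mouse 13. It ranged from 2 (without NP mouse 5, HF + LP mouse 2, or HF + LP mouse 4) to 9 (without HF + LP mouse 5) when 1 mouse was left out. 5430431A17Rik was called in all 23 alternatives, Gm42972 in 22, and Kmt2d and Abat in 15 each. Among genes at an unadjusted p under 0.05, 44.4% were higher, and 50.9% and 52.9% without HF + LP mouse 1 and 3.

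The NP and HF + LP groups share the animal numbers 3, 4, and 5. Deviations of same-numbered mice from their group means had correlations of −0.291, 0.151, and −0.00419. Those of differently numbered mice ran from −0.583 to 0.589. With only 3 such pairs, these values cannot tell whether the numbers pair the mice. For the 20 genes, the 10 calls between HF + LP and LP became 5 with the library name number, 0 with body weight, 0 with the replicate block, and 3 without LP mouse 13, and 1 to 8 without 1 mouse. The 8 calls in HF compared to NP became 2 with body weight and 2 with the block. The differences in total count ranged from 817000 to 2372000 without 1 mouse (exact permutation p = 0.0476 without NP mouse 6), in mitochondrial percent from −0.849 to 1.321, and in the percent of the 10 most counted genes from −0.934 to 1.098. Paired by number, the mitochondrial percent differed by −1.537 (exact sign-flip p = 0.5). Bmp10 had a log2 fold change of −0.90, and 0.056 with the block, with −1.208 to 0.472 without 1 mouse, and Lum −0.12, with −0.2223 to 0.028. Of the list medians given above, those of cytosolic DNA sensing, serine and one-carbon metabolism, mitochondrial dynamics, amino acid transporters, interferon response, and fibroblast markers had the other sign in 8, 7, 7, 3, 1, and 1 of 21 alternatives. The cause of these shifts was not tested. With 5 mice a group, small changes may have been missed.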
